A study of Mus musculus with 14 samples.

Results

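The genes of eosinophil granules and of the eosinophil surface receptor Ccr3 were followed across sorted fractions of FDCPmix cells. The set was chosen by gene name and holds Epx, Prg2, Prg3, Ear6, Ear1, Ear2 and Ccr3. Through the transcript accessions in the scanner files, 7 probes were matched to 6 of these 7 genes, which stand among 32474 genes tested on the arrays. Ccr3 had 2 probes and the other 5 measured genes had 1 each. No probe was matched to Ear2, so it has no value here. FDCPmix is a mouse progenitor cell line whose tissue label is bone marrow, and all 14 samples come from this line. Every culture was kept under maintenance conditions, in medium with 20% horse serum and 2% conditioned medium as the source of interleukin-3, and sorted cells were lysed for RNA. The groups were Gr1+ cells (3 arrays), Kit-Gr1- cells (3 arrays), Kit+Gr1-Sca1hi cells (3 arrays, Sca1hi from here on), Kit+Gr1-Sca1lo cells (3 arrays, Sca1lo) and unfractionated cells (2 arrays). Kit+Gr1- stands for the mean of the Sca1hi and Sca1lo groups. Per the series' design text the replicates are biological, and the labels do not say whether fractions with the same number came from 1 culture.

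Eosinophils are granulocytes whose large granules carry strongly basic proteins that are toxic to parasites and to neighbouring cells. The granule core is built of major basic protein, and the matrix around it holds a peroxidase and ribonucleases. Interleukin-3, interleukin-5 and GM-CSF support the growth of eosinophils from bone marrow progenitors, and the transcription factors GATA1, C/EBP family members and PU.1 take part in the choice of this lineage. Ccr3 is the receptor for eotaxins, the chemokines that draw eosinophils into tissue. The Gr1 antibody binds Ly6g and Ly6c on the surface of granulocytes and some monocytes, so the gate selects a surface marker that neutrophils carry as well.

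Signals are given as log2 of the scanner's processed signal relative to each array's 75th percentile, so that 0 is the level of the probe at that percentile. The brightness of a probe depends on its sequence, and levels are therefore compared between arrays and not between genes. All 7 probes were well above background on all 14 arrays, and none of their spots was saturated. The arrays lay on 4 slides, of which slide 1 held replicate 1 of the 4 sorted fractions. Unfractionated replicate 1 was far brighter than the rest, with a median processed signal of 5183 against 120 to 784 on the other arrays. On 4 arrays (Gr1+ replicate 3, Sca1hi replicate 3, Sca1lo replicate 3 and unfractionated replicate 1) the interquartile range of log2 signals was narrow, 1.77 to 3.41 against 4.16 to 4.92 on the others, and results are given with and without them. The RNA of Ly6c1, part of the Gr1 antigen, measured 5.73 to 6.72 in Gr1+ cells, -3.06 to 0.07 in Kit-Gr1- cells, -2.25 to 0.36 in Sca1hi cells and -1.57 to 0.92 in Sca1lo cells. Kit RNA measured 0.43 to 0.97, -2.04 to -1.61, -0.18 to 0.77 and 0.18 to 0.56 in these fractions, in the same order. The RNA of Ly6a, which encodes Sca1, measured 2.57 to 3.05, -3.21 to -2.12, -0.52 to 0.16 and -2.96 to -2.38. Both were thus not lower in Gr1+ cells than in the Kit+Gr1- fractions. The precision of every value is limited by the number of arrays. In bulk RNA, fewer cells of a type and less RNA per cell cannot be told apart, which holds for every comparison of fractions below.

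In Gr1+ cells the RNA of all 5 measured granule genes was far higher than in Kit+Gr1- cells, while Ccr3 did not pass. The largest differences were those of Prg2 (210-fold) and Epx (164-fold), followed by Ear6 (64.4-fold), Prg3 (28.9-fold) and Ear1 (10.8-fold). A gene was called when its adjusted p in limma was under 0.05 and its difference at least 2-fold. By this rule 5 of the 6 measured genes were called higher and 0 lower, against 1.38% called higher and 0.625% called lower among all genes tested. The median log2 difference of the 6 genes was 5.43, against -0.04 over all genes.

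Prg2 encodes the precursor of major basic protein, the main protein of the granule core. It measured 6.21, 7.68 and 6.38 on the Gr1+ arrays of replicates 1, 2 and 3, against -3.18, 1.16 and -0.48 on the Kit-Gr1- arrays. On the Sca1hi arrays it measured -2.73, 1.13 and -1.21, and on the Sca1lo arrays -2.96, 1.06 and -1.04. In scanner units the processed signal of Prg2 was 68690, 185519 and 81236 in Gr1+ cells. No array of the other sorted fractions came near the Gr1+ arrays, and the nearest, Kit-Gr1- replicate 2, lay 5.05 log2 units below the lowest of them. The difference was 7.71 ± 1.44 (SE, 3 against 6 arrays, limma adjusted p = 0.0125) against Kit+Gr1- cells and 7.59 ± 1.66 (3 against 3 arrays, adjusted p = 0.0375) against Kit-Gr1- cells. Prg3 encodes a second form of major basic protein. Its level was 1.89, 3.62 and 2.26 in Gr1+ cells, against -3.35, -2.65 and -3.86 in Kit-Gr1- cells, -3.07, -2.71 and -0.85 in Sca1hi cells, and -3.18, -1.93 and -1.83 in Sca1lo cells. Again the groups did not overlap. Prg3 was higher by 4.85 ± 0.80 (adjusted p = 0.00679) against Kit+Gr1- cells and by 5.87 ± 0.93 (58.6-fold, adjusted p = 0.00565) against Kit-Gr1- cells.

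Epx encodes eosinophil peroxidase, the enzyme of the granule matrix that makes hypohalous acids. It measured 4.73, 5.75 and 4.12 in Gr1+ cells, against -4.45, -0.96 and -3.11 in Kit-Gr1- cells, -4.52, -0.95 and -2.65 in Sca1hi cells, and -3.31, -0.52 and -3.02 in Sca1lo cells. The lowest Gr1+ array was 4.64 log2 units above the highest array of the other sorted fractions, Sca1lo replicate 2. Epx was higher by 7.36 ± 1.25 (adjusted p = 0.00803) against Kit+Gr1- cells and by 7.70 ± 1.45 (209-fold, adjusted p = 0.0161) against Kit-Gr1- cells.

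Ear6 and Ear1 encode eosinophil-associated ribonucleases, a mouse family of close paralogs. Ear6 measured 1.93, 3.58 and 2.21 in Gr1+ cells, against -3.04 and -4.16 on replicates 2 and 3 of Kit-Gr1- cells, -4.28, -3.07 and -1.67 in Sca1hi cells, and -4.54, -3.23 and -3.83 in Sca1lo cells. The Ear6 spot on Kit-Gr1- replicate 1 was marked as an outlier by the scanner software and was dropped. Its value was -0.81, below every Gr1+ array. Ear6 was higher by 6.01 ± 0.76 (adjusted p = 0.00207) against Kit+Gr1- cells and by 6.18 ± 0.98 (72.3-fold, 3 against 2 arrays, adjusted p = 0.00739) against Kit-Gr1- cells. Ear1 was at -0.73, 0.80 and -0.52 in Gr1+ cells, against -4.21, -4.14 and -5.06 in Kit-Gr1- cells, -3.91, -4.38 and -1.66 in Sca1hi cells, and -4.01, -4.16 and -3.41 in Sca1lo cells. The gap was smallest for Ear1, where the lowest Gr1+ array stood 0.93 above Sca1hi replicate 3, an array of narrow range. Ear1 was higher by 3.44 ± 0.55 (adjusted p = 0.00602) against Kit+Gr1- cells and by 4.32 ± 0.64 (20.0-fold, adjusted p = 0.00367) against Kit-Gr1- cells. The files give no probe sequences, and whether the Ear6 and Ear1 probes also bind RNA of paralogs such as Ear2 was not tested, so these values are uncertain between family members.

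Ccr3 showed no such difference. The probe tested, the brighter of its 2, measured -0.57, -0.89 and -0.15 in Gr1+ cells, against -1.14, -1.0 and -1.43 in Kit-Gr1- cells, -1.04, -1.48 and 0.76 in Sca1hi cells, and -0.95, -1.18 and -0.67 in Sca1lo cells. Its Gr1+ arrays lay above the Kit-Gr1- arrays but among the Kit+Gr1- arrays, of which Sca1hi replicate 3 was highest. The difference was 0.22 ± 0.56 against Kit+Gr1- cells (95% interval -0.98 to 1.43, adjusted p = 1.00) and 0.66 ± 0.64 against Kit-Gr1- cells (-0.73 to 2.04, adjusted p = 0.946). The second probe measured -1.64, -1.29 and -1.75 in Gr1+ cells and differed from Kit+Gr1- cells by -0.12 and from Kit-Gr1- cells by -0.14.

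**Figure D1:**
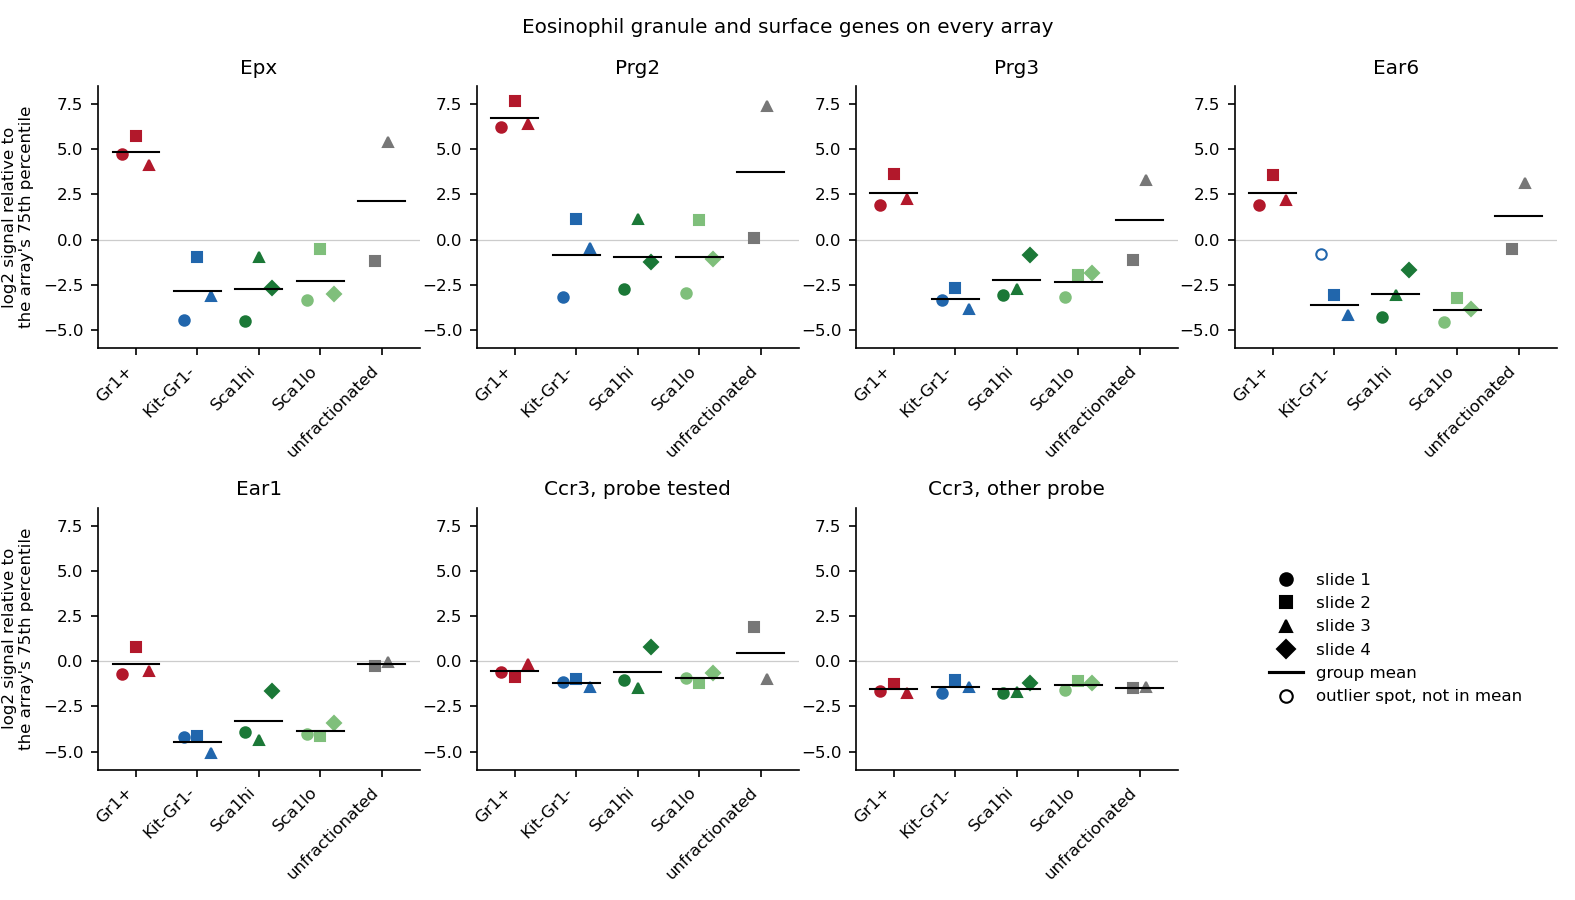
Signal of each probe (y axis, log2 relative to the array's 75th percentile) on every array, by fraction (x axis). Points are single arrays with the marker showing the slide, lines are group means, and the open circle is the dropped Ear6 spot. The 3 Gr1+ arrays lie above all other sorted arrays for Epx, Prg2, Prg3, Ear6 and Ear1, and among them for both Ccr3 probes.

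Promoter sequences are shown for 4 granule genes called higher in Gr1+ cells, Epx, Prg3, Ear6 and Ear1, and for Ccr3, which was not called, as 250 bases before to 50 bases after the start site from RefSeq on GRCm38.p6. The RefSeq table gave such a sequence for 6 of the 7 genes, all but Prg2, and that of Ear2 is not printed, since it has no value here. The windows are chr11:87875487-87875786 on the minus strand for Epx, chr2:84987965-84988264 on the plus strand for Prg3, chr14:51853518-51853817 on the plus strand for Ear6, chr14:43819590-43819889 on the minus strand for Ear1 and chr9:124021721-124022020 on the plus strand for Ccr3. Each is printed 5′ to 3′ in the direction of the gene. Capitals mark matches on either strand to GATAA (the core of GATA sites), TTNNGNAA (the letters of a C/EBP site) or GAGGAA (a core of PU.1 sites), and in Ccr3 a C/EBP match and a PU.1 match adjoin without overlapping.
Epx: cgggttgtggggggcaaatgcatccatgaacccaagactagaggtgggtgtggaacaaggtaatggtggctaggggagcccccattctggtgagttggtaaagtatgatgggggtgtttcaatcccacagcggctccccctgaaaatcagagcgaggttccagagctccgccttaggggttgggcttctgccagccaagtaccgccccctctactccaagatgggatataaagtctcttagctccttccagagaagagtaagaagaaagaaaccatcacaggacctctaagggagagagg
Prg3: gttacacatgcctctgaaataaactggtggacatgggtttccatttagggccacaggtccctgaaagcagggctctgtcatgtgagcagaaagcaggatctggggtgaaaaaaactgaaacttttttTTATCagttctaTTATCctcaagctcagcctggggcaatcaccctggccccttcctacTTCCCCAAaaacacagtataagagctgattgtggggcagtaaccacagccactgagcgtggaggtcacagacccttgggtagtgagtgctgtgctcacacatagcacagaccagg
Ear6: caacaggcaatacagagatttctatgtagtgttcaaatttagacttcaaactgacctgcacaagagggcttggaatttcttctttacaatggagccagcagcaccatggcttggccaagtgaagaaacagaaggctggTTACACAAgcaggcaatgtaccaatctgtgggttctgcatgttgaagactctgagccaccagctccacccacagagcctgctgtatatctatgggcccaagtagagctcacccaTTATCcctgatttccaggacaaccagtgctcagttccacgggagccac
Ear1: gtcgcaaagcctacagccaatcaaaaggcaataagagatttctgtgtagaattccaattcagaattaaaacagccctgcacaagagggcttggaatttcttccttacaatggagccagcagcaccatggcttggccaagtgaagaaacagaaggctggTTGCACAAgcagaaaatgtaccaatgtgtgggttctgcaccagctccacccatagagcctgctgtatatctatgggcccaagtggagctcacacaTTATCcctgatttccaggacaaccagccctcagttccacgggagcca
Ccr3: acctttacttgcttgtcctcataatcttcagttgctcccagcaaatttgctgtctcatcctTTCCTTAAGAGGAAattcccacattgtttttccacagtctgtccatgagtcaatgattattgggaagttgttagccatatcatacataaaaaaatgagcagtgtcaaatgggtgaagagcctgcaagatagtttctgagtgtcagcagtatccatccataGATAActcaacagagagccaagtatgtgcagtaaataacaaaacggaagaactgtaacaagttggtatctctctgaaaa
The shares of 32851 promoters of the same length that held each motif were 25.4% for GATAA, 40.7% for TTNNGNAA and 28.3% for GAGGAA. Prg3 held 2 GATA matches, at -123 and -111 from the start site, and 1 C/EBP match at -65. Ear6 and Ear1 each held 1 GATA match just after the start, at 3 and 4, and 1 C/EBP match, at -112 and -92. Ccr3 held 1 match to each motif, at -29 (GATA), -189 (C/EBP) and -181 (PU.1), and Epx held none. A match is a string of letters and was not tested as a binding site. Aligned end to end, the Ear1 window was 80.7% identical to that of Ear6 and 97.0% identical to that of Ear2, whereas Epx and Prg3 were 48.9% identical, near the 47.8% to 52.4% of the other pairs outside the Ear family.

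Against Kit-Gr1- cells 5 of the 6 genes were likewise called higher and 0 lower, where 1.03% of all genes were called higher and 0.564% lower. This comparison shares its Gr1+ arrays with that against Kit+Gr1- cells. The median of the 6 differences was 6.02, against 0.22 over all genes. Every one of the 5 granule genes stood higher in Gr1+ cells within each slide that held both fractions. Against the Kit+Gr1- arrays of the same slide (both fractions on slide 1, Sca1lo on slide 2, Sca1hi on slide 3) Epx differed by 8.64, 6.27 and 5.07 and Prg2 by 9.06, 6.61 and 5.25 on slides 1, 2 and 3. Prg3 differed by 5.02, 5.54 and 4.97, Ear6 by 6.33, 6.82 and 5.28, and Ear1 by 3.23, 4.96 and 3.85. Ccr3 differed by 0.42, 0.29 and 1.33. Against Kit-Gr1- cells the within-slide differences of the granule genes ran from 3.48 (Ear1 on slide 1) to 9.39 (Prg2 on slide 1).

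A count over arrays gave the same members. All 3 Gr1+ arrays lay above all 9 other sorted arrays for 5 of the 6 genes, Ccr3 being the exception, and for 1389 of all 32474 genes tested (4.28%). Without the 4 arrays of narrow range, 5 of the 6 genes were again called higher in each comparison, with median differences of 6.01 and 6.20. In that setting 2012 and 1819 of all 29240 genes tested were called. The SE of each gene rests on a spread pooled over all 14 arrays, among them the unfractionated pair. The SD of that pair exceeded that of Gr1+ cells for Prg2 (5.14 against 0.80), Epx (4.66 against 0.83), Prg3 (3.11 against 0.91) and Ear6 (2.56 against 0.89). For Ear1 it was smaller (0.14 against 0.83). With this pooled spread the calls against Kit+Gr1- cells depended on single Gr1+ arrays. Without Gr1+ replicate 3 Prg2 lost its call there (7.90, adjusted p = 0.0511). Without Gr1+ replicate 2 only Ear6 remained called, while Epx, Prg2, Prg3 and Ear1 differed by 6.92, 7.25, 4.34 and 2.96 without passing. Calls over all genes fell as well, from 651 to 363 without Gr1+ replicate 3 and to 114 without Gr1+ replicate 2. Against Kit-Gr1- cells the calls were 2 without Gr1+ replicate 2 or Kit-Gr1- replicate 3, and 3 without Gr1+ replicate 1 or Kit-Gr1- replicate 1. Over all genes 517 were called in this comparison with every array. That number was 151 without Gr1+ replicate 2, 207 without Kit-Gr1- replicate 3 and 189 without Kit-Gr1- replicate 1. Prg3 and Ear1 were called against Kit-Gr1- cells whichever single array was left out, while Prg2 lost its call without any of 7 different arrays. With array medians in place of the 75th percentile as the scale, 2 of the 6 genes (Prg3 and Ear1) were called against Kit-Gr1- cells. Prg2 lost its call against Kit+Gr1- cells (7.73, adjusted p = 0.0617). On this scale 202 of all genes were called against Kit+Gr1- cells and 191 against Kit-Gr1- cells. In the unscaled series values Ear1 lost both calls, against Kit+Gr1- cells (3.24, adjusted p = 0.177) and against Kit-Gr1- cells (4.35, adjusted p = 0.106). Unscaled values keep the differences in array brightness. The processed signal of Ear1 was 7979 on unfractionated replicate 1 and 649 on replicate 2, and both arrays enter the pooled spread. The part of this in the lost calls was not tested.

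Between the Kit-Gr1- and Kit+Gr1- fractions no granule or surface gene was called. Limma called 0 of the 6 genes, where 0.0554% of all genes were called higher and 0.0123% lower (22 genes, and 658 at an unadjusted p under 0.05). The differences were -0.34 ± 1.25 for Epx (95% interval -3.05 to 2.37), 0.13 ± 1.44 for Prg2 (-2.98 to 3.23), -1.02 ± 0.80 for Prg3 (-2.76 to 0.71) and -0.17 ± 0.88 for Ear6 (-2.08 to 1.74). Ear1 differed by -0.88 ± 0.55 (-2.08 to 0.31) and Ccr3 by -0.43 ± 0.56 (-1.64 to 0.77). The intervals are wide. For Epx, Prg2 and Ear6 a difference of several fold in either direction could have been missed. For Prg3, Ear1 and Ccr3 the intervals reach several fold lower in Kit-Gr1- cells but end at 0.71, 0.31 and 0.77 on the higher side. Between Sca1hi and Sca1lo cells limma called 0 of the 6 genes and 0% of all genes, higher or lower, with 55 genes at an unadjusted p under 0.05. The differences ran from -0.42 ± 1.45 (Epx) to 0.86 ± 0.88 (Ear6).

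**Figure D2:**
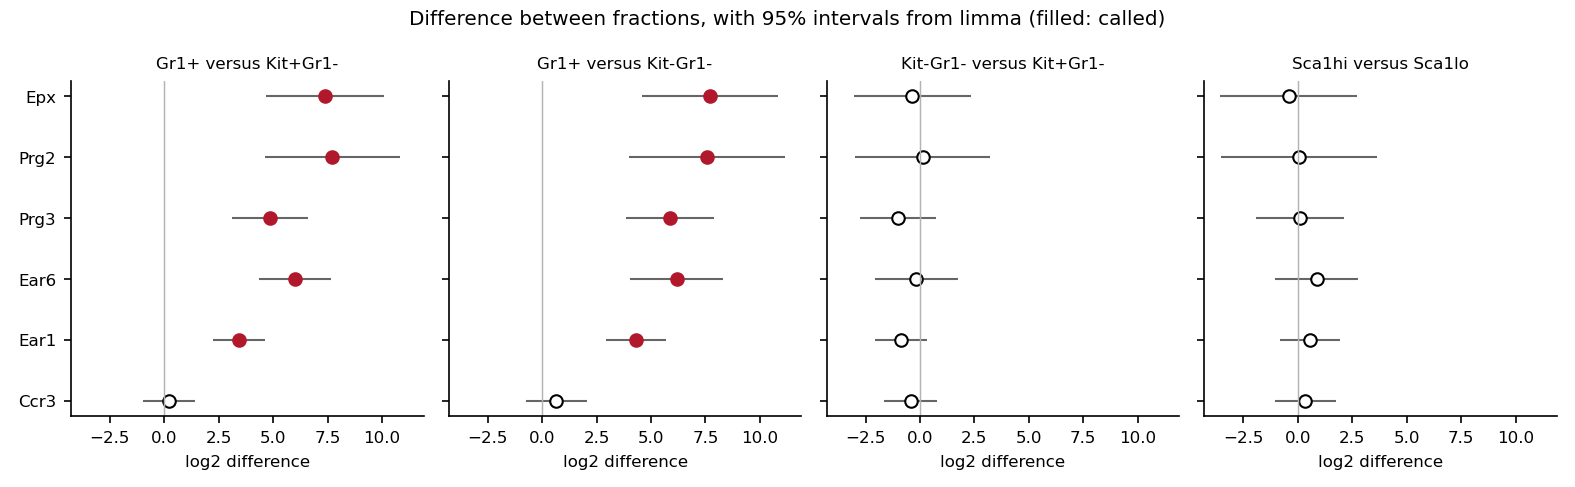
Difference between fractions for the 6 measured genes (x axis, log2, first-named fraction minus the other), with 95% intervals from limma. Filled points are called. The 5 granule genes lie between 3.44 and 7.71 in both panels with Gr1+ cells, and every interval in the other panels includes 0.

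The order of the fraction means was led by Gr1+ cells for each granule gene, and the other 3 fractions could not be ordered. Epx averaged 4.86 ± 0.83 in Gr1+ cells, -2.29 ± 1.54 in Sca1lo cells, -2.71 ± 1.79 in Sca1hi cells and -2.84 ± 1.76 in Kit-Gr1- cells (SD, n = 3 each). Prg2 averaged 6.76 ± 0.80 in Gr1+ cells, -0.83 ± 2.19 in Kit-Gr1- cells, -0.93 ± 1.95 in Sca1hi cells and -0.98 ± 2.01 in Sca1lo cells. For both genes the spread among the 3 arrays of each Gr1- fraction was wider than the differences between those fractions.

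That spread went with the replicate number. Prg2 measured 1.06 to 1.16 on the replicate 2 arrays of the 3 Gr1- fractions, -1.21 to -0.48 on the replicate 3 arrays and -3.18 to -2.73 on the replicate 1 arrays. Epx measured -0.96 to -0.52 on replicate 2, -3.11 to -2.65 on replicate 3 and -4.52 to -3.31 on replicate 1. Slide 3 held Sca1hi replicate 2, with Epx at -0.95, and Kit-Gr1- replicate 3, with Epx at -3.11. Slide 1 stood apart from the others as well. In the 9 sorted arrays outside Gr1+, Prg2 averaged 0.72 on slides 2 and 3 (4 arrays) against -2.96 on slide 1 (3 arrays), a difference of 3.68, with -1.12 on slide 4 (2 arrays). Epx averaged -1.39 on slides 2 and 3 against -4.09 on slide 1, a difference of 2.71. In Ear6 the difference was 1.03, over 2 arrays on slide 1. In these 3 of the 6 genes every array of slides 2 and 3 lay above every array of slide 1, as they did for 11.5% of all genes tested. Prg3 (0.41), Ear1 (-0.39) and Ccr3 (-0.23) overlapped. Genes of neutrophil granules shared the pattern: Lcn2 differed by 3.52, Ngp by 3.10, Stfa2l1 by 2.83 and Camp by 2.62, each without overlap, and 9 of 24 neutrophil secondary granule genes did so. Slide 1 held replicate 1 of every fraction, so slide and replicate number cannot be told apart there, and the part of carried-over Gr1+ cells or of Gr1+ RNA in these levels was not tested. With slide as a block, 5 of the 6 genes were called against Kit+Gr1- cells and 5 against Kit-Gr1- cells.

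**Figure D3:**
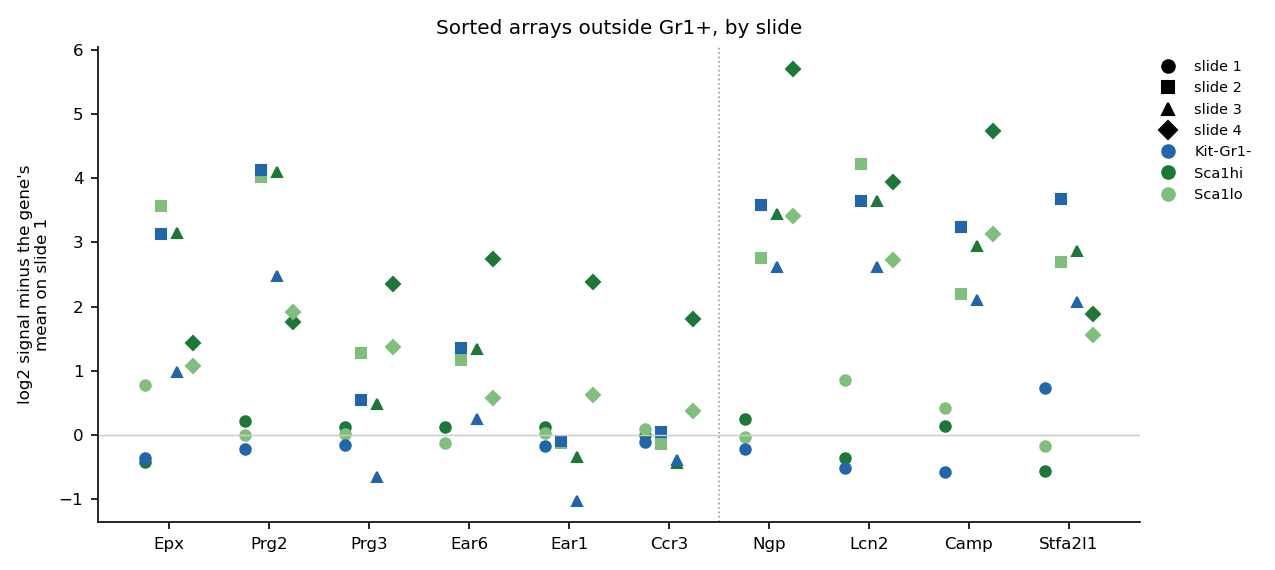
The 9 sorted arrays outside Gr1+ for the 6 measured genes (left of the dotted line) and 4 neutrophil granule genes (right of it), as log2 signal minus the gene's mean on slide 1 (y axis). Colours give the fraction and markers the slide. For Prg2 the arrays of slides 2 and 3 average 3.68 above slide 1 and for Lcn2 3.52, while Ear1 and Ccr3 overlap between slides.

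The same Gr1+ arrays carried a neutrophil signal. Of 24 neutrophil secondary and tertiary granule or mature neutrophil genes, 16 rose and 0 fell against Kit+Gr1- cells (median 4.16), among them the protease inhibitor gene Stfa2l1 (8.01 ± 1.27), the granule protein gene Ngp (7.58 ± 1.26), the siderophore-binding Lcn2 (7.49 ± 1.33) and the antimicrobial peptide gene Camp (7.30 ± 1.24). Against Kit-Gr1- cells 15 of the 24 rose (median 5.40). The summed level of the 24 genes, relative to each array's 75th percentile on the linear scale, was 728 to 1566 in Gr1+ cells, 17.7 to 72.6 in Kit-Gr1- cells, 35.1 to 74.8 in Sca1hi cells and 28.4 to 57.0 in Sca1lo cells. The 5 eosinophil granule genes summed to 109 to 285 in Gr1+ cells, 0.308 to 3.09 in Kit-Gr1- cells, 0.431 to 3.03 in Sca1hi cells and 0.445 to 3.21 in Sca1lo cells. The value of 0.308, on Kit-Gr1- replicate 1, leaves out Ear6, whose spot was dropped there. Neither sum overlapped between Gr1+ and the other sorted fractions. Such sums weigh bright probes most, and in Gr1+ cells that of the eosinophil genes rests mostly on Prg2 and Epx. The sums are therefore compared between fractions and not with each other. Of 10 neutrophil primary granule genes, 2 rose in each comparison, the proteases Elane (5.96 ± 0.57) and Prtn3 (3.85 ± 0.50) in that against Kit+Gr1- cells (median 1.92). Mpo, the peroxidase of neutrophil and monocyte granules, measured 3.20 ± 1.01 and did not pass. In that comparison Mpo passed in 9 of 31 other settings. Without Gr1+ replicate 2, 2 of the 24 secondary granule genes rose against Kit+Gr1- cells and 4 against Kit-Gr1- cells. In that setting 114 and 151 of all genes were called. Without the 4 arrays of narrow range, 19 of the 24 rose against Kit+Gr1- cells and 20 against Kit-Gr1- cells. Of the 10 primary granule genes, 7 rose and 1 fell against Kit+Gr1- cells there, and 5 rose against Kit-Gr1- cells. Without the narrow arrays 2012 and 1819 of all 29240 genes tested were called.

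Gr1+ replicate 2 was the highest Gr1+ array for 5 of 5 eosinophil granule genes, for 23 of 24 neutrophil secondary granule genes and for 8 of 10 primary granule genes, against 14.7% of all 32432 genes with a value on the 3 arrays. The median deviation from the Gr1+ mean was -0.58, 0.95 and -0.37 on replicates 1, 2 and 3 for the eosinophil granule genes, -0.98, 0.75 and 0.30 for the secondary granule genes, and -0.09, 0.13 and -0.08 for the primary granule genes. On replicate 3 the eosinophil and the secondary granule genes thus deviated in opposite directions. Ccr3 deviated by -0.04, -0.35 and 0.39, with its lowest level on replicate 2. This was not tested over so few arrays.

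**Figure D4:**
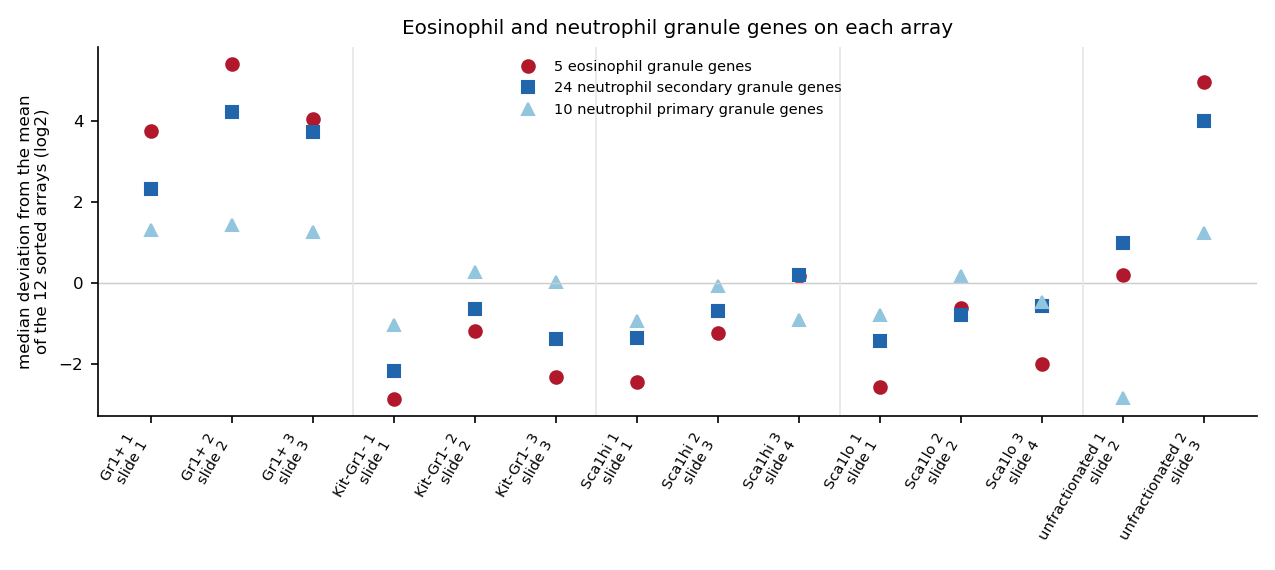
Median deviation of eosinophil and neutrophil granule genes (y axis, log2, from each gene's mean over the 12 sorted arrays) on each array (x axis, with its slide). The 5 eosinophil granule genes reach 3.75, 5.41 and 4.04 on the Gr1+ arrays and 4.96 on unfractionated replicate 2, and lie between -2.87 and 0.16 on the other sorted arrays. The median of -2.87, on Kit-Gr1- replicate 1, leaves out Ear6, whose spot was dropped there.

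The 2 unfractionated arrays differed widely and were not tested. On replicate 2 Epx measured 5.41, Prg2 7.37, Prg3 3.28, Ear6 3.13 and Ear1 -0.05, each within the range of the Gr1+ arrays, and Ccr3 measured -0.98. All 24 neutrophil secondary granule genes likewise lay within or above the Gr1+ range on this array. On replicate 1, a far brighter array of narrow range, Epx measured -1.18, Prg2 0.09, Prg3 -1.12, Ear6 -0.50, Ear1 -0.24 and Ccr3 1.87. The level on replicate 2 was thus close to that of sorted Gr1+ cells, and which array stands for the unfractionated culture cannot be told from a pair.

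Other ribonucleases and surface genes of eosinophils moved in part. Of 9 further eosinophil ribonuclease genes 3 were measured, and 1 rose against Kit+Gr1- cells. This was Rnase2a, a ribonuclease of the same superfamily, which measured 3.48, 4.75 and 3.46 in Gr1+ cells and -1.08 to -0.28 on the 9 other sorted arrays, and rose by 4.63 ± 0.83 (adjusted p = 0.0105). It did not pass there with slide as a block (4.49), without Gr1+ replicate 2 (4.20) or with array medians as the scale (4.65). Rnase2a was called higher against Kit-Gr1- cells too, but lost that call in 16 of 29 other settings. Ear10 measured -2.36, -0.85 and -1.22 in Gr1+ cells, against -8.54, -7.99 and -7.93 in Kit-Gr1- cells, where it was not above background. It was above background on 2 of the 6 Kit+Gr1- arrays, Sca1hi replicate 3 and Sca1lo replicate 3, both of narrow range, so its fitted difference from Kit+Gr1- cells, 4.86 ± 1.39 (adjusted p = 0.125), rests largely on background readings. With replicate number as a block it passed there (adjusted p = 0.0441). In Gr1+ cells it was 22.9-fold above the level of the dimmest probes still above background on the Kit-Gr1- arrays, which is not a strict lower bound. Against Kit-Gr1- cells it did not pass (adjusted p = 0.0622), and without Sca1hi replicate 3, where it stood at -1.0, it passed in both comparisons. Over all alternatives its adjusted p against Kit-Gr1- cells ran from 1.69e-05 to 0.322. Ear10 belongs to the same paralog family, and the doubt over cross-binding holds for it too.

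Of 18 eosinophil surface receptors, 4 rose and 0 fell against Kit+Gr1- cells (median 0.88, against -0.04 over all genes). Siglecf, the sialic acid receptor that marks mouse eosinophils, was at 0.15, 1.22 and 0.83 in Gr1+ cells and at -1.87 to -1.14 on the 9 other sorted arrays. It rose by 2.23 ± 0.27 (4.71-fold, adjusted p = 0.00142) against Kit+Gr1- cells and by 2.03 ± 0.31 (4.08-fold, adjusted p = 0.00463) against Kit-Gr1- cells. It kept both calls whichever single array was left out and lost both with array medians as the scale and in the unscaled series values. The call of Siglecf against Kit-Gr1- cells was also lost with quantile normalization and with normexp background correction. The macrophage and eosinophil antigen Adgre1 (4.50 ± 0.85), the Fc receptor Fcgr3 (4.48 ± 0.88) and the GM-CSF receptor chain Csf2ra (3.91 ± 0.79) rose too against Kit+Gr1- cells, and each lost its call when any single Gr1+ array was left out. These 3 are not particular to eosinophils, since neutrophils or monocytes carry them as well. Against Kit-Gr1- cells Siglecf alone of the 18 passed (median 0.52, against 0.22), and without the 4 arrays of narrow range 5 rose and 2 fell, with Adgre1 (3.73), Csf2ra (3.74) and Fcgr3 (2.90) among those that rose. Il5ra, the receptor chain that binds interleukin-5, measured -2.79, -2.39 and -2.88 in Gr1+ cells, against -2.84, -2.73 and -2.85 in Sca1hi cells and -3.36, -2.86 and -3.0 in Sca1lo cells. Its difference from Kit+Gr1- cells was 0.25 ± 0.32 and that from Kit-Gr1- cells, at -4.35, -3.93 and -3.90, was 1.37 ± 0.37, and neither passed. Without the 4 arrays of narrow range 9 of the 18 receptors rose and 1 fell against Kit+Gr1- cells. In that setting 2012 of all 29240 genes tested were called against Kit+Gr1- cells and 1819 against Kit-Gr1- cells. Il5ra passed against Kit-Gr1- cells in 8 of 29 other settings, that without the narrow arrays among them.

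Of 13 genes for eosinophil mediators and granule release, Serpinb10, a serpin linked to eosinophils, rose by 5.95 ± 0.69 (61.9-fold, adjusted p = 0.00108) against Kit+Gr1- cells and by 5.24 ± 0.79 (37.8-fold, adjusted p = 0.00432) against Kit-Gr1- cells, and the other 12 did not pass in either comparison. Alox15, the 15-lipoxygenase found in eosinophils and macrophages, measured 1.77 ± 0.62 against Kit+Gr1- cells. Without the 4 arrays of narrow range 6 of the 13 passed in that comparison, as did 2012 of all 29240 genes tested. Of 17 genes for regulators, 3 rose and 1 fell against Kit+Gr1- cells. Trib1, a pseudokinase that acts on C/EBP proteins, rose by 3.47 ± 0.73, the repressor Bcl6 by 1.84 ± 0.32 and Spi1, which encodes PU.1, by 1.36 ± 0.25. Zfpm1, the FOG1 partner of GATA factors, fell by 2.28 on the log2 scale (SE 0.44, adjusted p = 0.0157), with 2.56, 1.66 and 2.28 in Gr1+ cells and 3.65 to 4.94 in Kit+Gr1- cells. Gata1 measured 0.58, 0.34 and 0.09 in Gr1+ cells, against -0.43, -0.04 and -0.06 in Sca1hi cells and 0.75, 0.79 and 0.67 in Sca1lo cells, and its difference from Kit+Gr1- cells was 0.06 ± 0.22 (adjusted p = 1.00). Against Kit-Gr1- cells Gata1 fell by 2.03 on the log2 scale (SE 0.26, adjusted p = 0.00166). Trib1 lost its call with slide as a block, and Trib1, Bcl6, Spi1 and Zfpm1 lost theirs without Gr1+ replicate 2. Against Kit+Gr1- cells Trib1 lost its call in 12 of 31 other settings, Spi1 in 7, Bcl6 in 5 and Zfpm1 in 4. For Bcl6 and Spi1 these included array medians, quantile normalization, normexp background correction and the unscaled series values. Of 5 Ccr3 ligand genes none passed in either comparison, and of 7 cytokine genes of eosinophil growth Il4 alone rose against Kit+Gr1- cells (3.00 ± 0.49), with 0 against Kit-Gr1- cells. Il4 lost its call without Gr1+ replicate 2 (2.92, adjusted p = 0.0695) and with array medians as the scale (adjusted p = 0.120).

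Markers of other cell types moved in part with the Gr1+ fraction. Of 11 mast cell and basophil genes, 2 rose against Kit+Gr1- cells (median 1.19), the basophil protease Prss34 (5.10 ± 1.06) and the receptor Cd200r3 (3.45 ± 0.80), and 0 rose against Kit-Gr1- cells. Neither passed without Gr1+ replicate 2 or with slide as a block. Cd200r3 lost its call against Kit+Gr1- cells in 19 of 31 other settings and Prss34 in 10. Without the 4 arrays of narrow range, however, 7 of 10 such genes rose against Kit+Gr1- cells and 2 against Kit-Gr1- cells. In that setting 2012 and 1819 of all 29240 genes tested were called. The summed level of the 11 was 250.3 to 537 in Gr1+ cells, 138 to 328 in Kit-Gr1- cells, 71.7 to 195 in Sca1hi cells and 76.1 to 143 in Sca1lo cells. Of 10 monocyte and macrophage genes, 5 rose against Kit+Gr1- cells and 3 against Kit-Gr1- cells, with summed levels of 39.4 to 59.8 in Gr1+ cells, 3.96 to 7.79 in Kit-Gr1- cells, 3.21 to 5.51 in Sca1hi cells and 3.14 to 4.40 in Sca1lo cells. Without Gr1+ replicate 2 none of these 10 passed in either comparison, where 114 and 151 of all genes were called. Of 10 erythroid genes 1 fell against Kit+Gr1- cells and 5 fell against Kit-Gr1- cells, with 0 rising. Of 8 megakaryocyte genes 1 rose and 1 fell against Kit+Gr1- cells and 2 fell against Kit-Gr1- cells. Of 8 lymphoid genes none passed. Basophils also transcribe Prg2, and macrophages some Ear genes, and the part of these cell types in the eosinophil gene signal was not tested.

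Across the 12 sorted arrays the 5 granule genes were closely alike. Pearson's r was 0.99 between Epx and Prg2 and 0.98 between Prg3 and Ear6, and 0.80 to 0.99 over the 10 pairs of granule genes. Pairs with Ear6 leave out Kit-Gr1- replicate 1, where its spot was dropped. With Ccr3 it was 0.16 to 0.58. These are descriptions over arrays in which the 3 Gr1+ arrays stand apart, which by itself gives a high r. Among the genes most like the mean of the 6 measured genes were Ankrd22, Mgll, Itgb2l, Chil1, Wfdc21, Hfe, Clec4b1, Rhou and Mtus1, at r of 0.98 to 1.00 and with differences of 1.98 (Hfe) to 7.41 (Rhou) from Kit+Gr1- cells. Those most like Ccr3 were Vstm5, Noxred1, Kcnh5, Ovol1 and Coro2b, at r of 0.98 to 0.99 and with differences of 0.09 to 0.26.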

How the data were processed

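RNA of 14 FDCPmix samples (150 ng each, per the labels) was hybridised to single-colour Agilent arrays. The deposited scanner files came from Feature Extraction 10.1.1.1, per the file headers, and hold a processed intensity per spot. The deposited series matrix holds log2 values that equal the log2 of these signals (largest difference 5e-09) and served as an alternative. Feature Extraction is also named in the submitters' processing notes.

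Control spots (43379 others remained, of 41174 probes) and outlier spots were left out. Probes were named through their accessions and a RefSeq table, for names only (23374 probes, 16535 symbols). Log2 signals were scaled to each array's 75th percentile. Probes well above background on at least 3 of 14 arrays were kept, and the one with the highest mean stood for its gene (32474 genes, 16460 with a symbol). Groups were compared in limma 3.58.1 (R 4.3.3, lmFit, eBayes with trend, all 14 arrays in 1 fit, 9 residual degrees of freedom, two-sided) with Benjamini-Hochberg adjustment over all genes. The scripts were tested on simulated data.

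Members and lists were chosen with earlier results of these data known. Named genes were all members, up to 4 called genes per list with the largest change (or up to 2 as values), and the genes most like the members, of which 1 is not reported here. Lists are given as counts and medians, without a test of the list. Alternatives covered scaling, background correction, filters, probes, blocks, weights, comparators and left-out arrays. Same-numbered arrays of the Gr1+, Sca1hi and Sca1lo fractions deviated together from their group means (r 0.62 to 0.87 over 9 pairs). Pairs with Kit-Gr1- cells did not all do so (r -0.23 to 0.21 over 9 pairs). Replicate 3 was an array of narrow range in Gr1+, Sca1hi and Sca1lo cells but not in Kit-Gr1- cells. Pairing of cultures by number and array range can therefore not be told apart, and the replicate block served only as an alternative.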

Additional observations from a re-analysis of the deposited data

How the results depend on the processing

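The differences of the 5 granule genes between Gr1+ cells and each other fraction stayed positive in all 300 values computed under alternatives, and 26 of these no longer passed. Genes called against Kit+Gr1- cells, Kit-Gr1- cells and between Kit-Gr1- and Kit+Gr1- cells numbered 651, 517 and 22. They were 202 and 191 with array medians (2 members called against Kit-Gr1- cells), 2189, 1955 and 770 with array weights, 1256, 1546 and 98 with only the groups compared, and 2012, 1819 and 142 without the 4 arrays of narrow range (29240 genes tested). With replicate block added to that last setting, chosen after seeing the data, they were 2319, 1981 and 327. Kit-Gr1- against Kit+Gr1- cells gave 13 with quantile normalization and 13 in the series values, and 0 against Sca1lo alone. Gr1+ cells gave 338 against Kit-Gr1- cells without a trend, and 325 against Sca1hi alone and 421 against Sca1lo alone. Between Sca1hi and Sca1lo cells 15 genes were called with array weights and 1 without the narrow arrays plus block. Leaving out 1 array gave 114 to 1359, 151 to 1292 and 0 to 111 genes, and 1 to 5 members against Kit+Gr1- cells and 2 to 5 against Kit-Gr1- cells. The highest counts came without an unfractionated array (1359 and 1333 against Kit+Gr1- cells), which leaves the pooled spread without that wide pair.

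With replicate block alone, 792, 670 and 27 genes were called and the members' calls did not change. Of the genes named, the block changed the calls of Ear10 in both comparisons with Gr1+ cells and of Adgre1, Csf2ra and Mpo against Kit-Gr1- cells, and all of these passed with it (adjusted p = 0.0441 and 0.0198 for Ear10, 0.0349 for Adgre1, 0.0374 for Csf2ra and 0.0123 for Mpo). Arrays of Kit-Gr1- cells did not all deviate with the same-numbered arrays of the other fractions. Of the 12 sorted arrays, 10 correlated best with their own number. Replicate 3 was of narrow range in the other sorted fractions, so these values cannot show that the numbers pair cultures.

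No value that turned sign was called. Kit-Gr1- minus Kit+Gr1-, Ear6 was 0.22 (array medians), 0.46 (quantile), 0.15 (normexp), 0.88 (array weights), 0.18 (without narrow arrays), 0.039 (with the block too), 0.77 (outlier spot kept) and 0.26 (Sca1lo alone), Epx 0.28 (quantile), 0.12 (normexp) and 1.59 (array weights), Prg2 -0.11 (series values), -0.45 (slide block) and -0.14 (narrow arrays and block), and Ccr3 0.088 (narrow arrays and block). Sca1hi minus Sca1lo, Prg2 was -0.091 (array medians), -0.24 (quantile), -0.16 (normexp), -0.35 (slide block) and -0.90 (array weights), Prg3 -0.032 (array medians), -0.32 (array weights) and -0.34 (without narrow arrays, with or without the block), Ear6 -0.061 (array weights), Ear1 -0.059 (without narrow arrays, either way), and Ccr3 -0.034 (array weights) and -0.20 (without narrow arrays, either way). Gr1+ minus Kit+Gr1-, Gata1 was -0.14 (series values) and -0.40 (Sca1lo alone).

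With single arrays left out, Kit-Gr1- minus Kit+Gr1- ran from -0.73 to 0.39 for Ear6, -1.28 to 0.46 for Epx and -0.87 to 1.30 for Prg2. Sca1hi minus Sca1lo ran from -0.33 to 0.79 for Ccr3, -0.28 to 1.08 for Ear1, -1.30 to 0.48 for Epx, -0.99 to 1.07 for Prg2 and -0.58 to 0.53 for Prg3. Gr1+ minus Kit+Gr1- ran from -0.00058 to 0.56 for Ccr3 and -0.067 to 0.18 for Gata1. The cause of these changes was not tested.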
